A study of Homo sapiens with 10 samples.

Results

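The gene studied here in depth is ARVCF (armadillo repeat gene deleted in velocardiofacial syndrome), together with its relatives in the p120 catenin family. The members were the rows of the expression table whose symbol was ARVCF, CTNND1, CTNND2, PKP1, PKP2, PKP3 or PKP4, 7 of the 26040 genes in the table. All libraries were of poly(A) RNA from U2OS, a human osteosarcoma cell line with wild-type p53. Every line was made by lentiviral infection and selected with puromycin at 1 µg/ml, control line included, and stably expressed either a negative control shRNA (shCont) or 1 of 3 different shRNAs against ARVCF (shARVCF). Per the labels each line treated was a single clone, so that shRNA and clone cannot be told apart. Treated cells received nutlin-3a at 10 µM over 24 h, which releases p53 from its ubiquitin ligase MDM2, and the rest received no drug. There was 1 untreated shCont library, 3 shCont libraries under nutlin-3a, 3 untreated shARVCF libraries and 3 shARVCF libraries under nutlin-3a. The number of a shARVCF library is the number of its line. The nutlin-3a shCont libraries 2 and 3 carry later library numbers than the other 8 and were treated as a second series, and no label says whether the 3 came from separate cultures, so that their spread may be technical. In bulk RNA of such lines, fewer expressing cells and less RNA per cell cannot be told apart. The design asks how knockdown of ARVCF alters the genes that p53 turns on; the values below are the level of ARVCF and its relatives in that setting.

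Proteins of the p120 family carry armadillo repeats and work where cadherins hold cells together. ARVCF, CTNND1 (p120 catenin) and CTNND2 (delta-catenin) bind the juxtamembrane part of classical cadherins, keep them at the cell surface and act on small GTPases. The plakophilins PKP1, PKP2 and PKP3 sit in desmosomes and link desmosomal cadherins to desmoplakin, and PKP4 (p0071) occurs at adherens junctions and in dividing cells.

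ARVCF lies on chromosome 22 (hg38, 19969896 to 20016808, minus strand, 20 exons in its longest GENCODE transcript of 4041 bases). Promoters of 4 of the 7 members could be taken from RefSeq (GRCh38.p14). Those of ARVCF and PKP4 are shown because these genes changed in opposite directions under nutlin-3a in every line. Each line holds the 250 bases before a RefSeq start, read 5′ to 3′ on the gene's strand, with GGGCGG (GC box) and CCAAT in capitals on either strand (CCGCCC and ATTGG on the other).
ARVCF, chr22:19987197-19987446, minus strand: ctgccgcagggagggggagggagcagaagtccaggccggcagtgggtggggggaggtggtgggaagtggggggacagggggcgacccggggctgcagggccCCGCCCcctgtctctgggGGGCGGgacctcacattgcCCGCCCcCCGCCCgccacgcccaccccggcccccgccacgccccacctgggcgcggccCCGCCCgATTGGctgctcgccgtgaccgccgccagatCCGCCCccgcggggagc
PKP4, chr2:158456702-158456951, plus strand: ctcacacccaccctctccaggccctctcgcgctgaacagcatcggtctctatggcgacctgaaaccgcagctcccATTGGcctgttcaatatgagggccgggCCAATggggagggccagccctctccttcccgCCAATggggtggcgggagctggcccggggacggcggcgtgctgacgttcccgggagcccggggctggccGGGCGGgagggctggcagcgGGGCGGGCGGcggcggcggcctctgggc
The ARVCF window lies inside the GENCODE gene, upstream of an inner start. It was 80% G and C with 24 CpG, 6 GC boxes and 1 CCAAT. The printed PKP4 window was 73.2% G and C with 23 CpG, 3 GC boxes, of which a pair overlap, and 3 CCAAT. PKP4 has a second RefSeq window, not printed (chr2:158457643-158457892), with 71.6% G and C, 22 CpG, 1 GC box and no CCAAT. Over 35116 such windows of all genes the median was 58% G and C and 11 CpG, 42.6% held a GC box and 32.0% a CCAAT. A p53 half-site (the degenerate decamer, searched on both strands, apart from the other motifs) was found in 5.57% of all windows. Neither printed window nor the second of PKP4 held it. Of the members' windows, 1 of the pair for CTNND2 held 1. A match or its lack describes these letters only.

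The deposited values are fragments per gene, scaled by the authors across libraries, with library totals of 17821751 to 19903778. Of the 7 members, 6 reached a value of 10 in at least 3 libraries and were tested. The drug check rose in both kinds of line: MDM2 by 3.25 on the log2 scale in the shARVCF lines and 2.22 in the control line, and CDKN1A by 3.11 and 2.99. With each library's dependence on spliced length and GC taken out (described below) the control-line values were 3.16 and 2.34, and those in the shARVCF lines 3.19 and 3.05. Of 9 osteoblast lineage markers, 5 reached 10 in all libraries (COL1A1, SPARC, RUNX2, ALPL and SPP1). COL1A2 ran from only 1.83 to 15.5, and SP7, BGLAP and IBSP stayed below 5. Of 7 epithelial markers 4 reached 10 in all libraries, led by KRT8 and KRT18. The epithelial list summed to 26605 to 27653 in the nutlin-3a control libraries against 8935 to 14135 in all others. The mesenchymal markers VIM and FN1 summed to 107084 to 120140 in the nutlin-3a control libraries, 232708 to 311962 in the nutlin-3a shARVCF libraries and 128129 to 194277 in the untreated ones. Blood markers other than CD68 were at most 12.7, and the list summed to 38.6 to 382. The part of the epithelial and mesenchymal genes in the results below was not tested.

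ARVCF was the member under the shRNAs, and its mRNA was lowered to about the same degree by each. Without drug it read 618 scaled fragments in the control line and 292, 343 and 338 in lines 1, 2 and 3. This left 47.2%, 55.6% and 54.7% of the control library. Under nutlin-3a the control libraries read 2928, 2571 and 2376 and the 3 lines read 1284, 1188 and 1232, or 48.9%, 45.2% and 46.9% of the control mean. All 3 lines lay below the 1 control library without drug and below every control library under nutlin-3a. How many other genes lay to 1 side of the lone untreated control library was not counted. Under nutlin-3a 64.1% of all tested genes had no overlap between these libraries, in either direction. Taking the lowest or the highest nutlin-3a control library as the reference gave 40.6% to 54.1%. The lines did not differ detectably from each other in their level averaged over both treatments. The widest gap between these averages was log2 0.08 (F test in limma, adjusted p = 0.939), in a test that called 4.34% of all genes. Of the 3 lines, line 1 was lowest without drug and highest with it, so its differences partly cancel in the average.

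**Figure D1:**
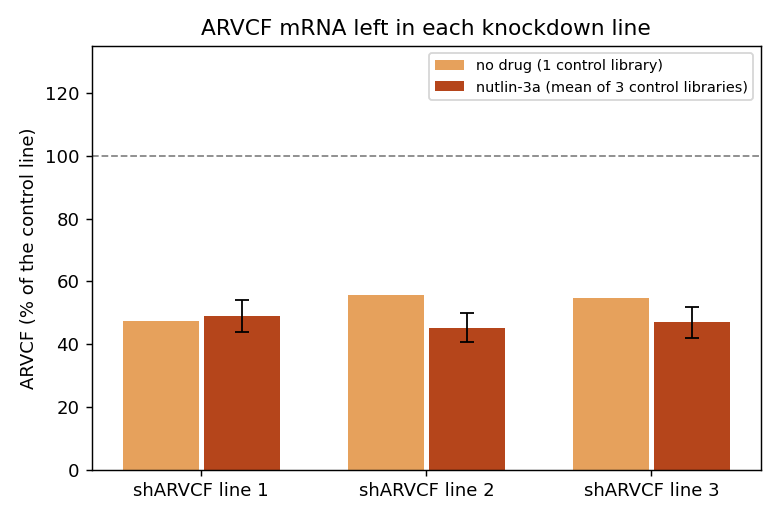
ARVCF mRNA in each shARVCF line as percent of the control line (y axis), without drug against the 1 control library and under nutlin-3a against the mean of 3, where the bars' whiskers run from the percent of the highest to that of the lowest control library. All 6 bars lie between 45.2% and 55.6%, well under the dashed line at 100%.

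The knockdown met the threshold of an adjusted p of 0.05 only under nutlin-3a (limma, log2 -1.08, SE 0.10, adjusted p = 3.14e-06). When the dependence of each library's values on spliced length and GC was taken out, this became -0.67 (adjusted p = 0.000272; 2.24e-06 to 0.000272 over 21 alternatives). Within the first library series alone it was -1.25. Without drug the difference was of like size (log2 -0.93, 95% interval -1.25 to -0.61) with an adjusted p of 0.0957, and 0.0539 to 0.413 over 21 alternatives, none of which passed. That comparison rests on 1 control library and called 0.0201% of all genes, and the difference ranked 14789th of 14955 from the top. With the length and GC trend taken out, the difference without drug was log2 -0.78.

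Nutlin-3a raised ARVCF in every line. The rise was 4.40-, 3.46- and 3.65-fold in lines 1, 2 and 3, and 4.74-, 4.16- and 3.85-fold in the 3 control libraries over the 1 untreated control library. The folds of the lines and of the control libraries overlap. As log2 changes they were 1.93 (SE 0.10, adjusted p = 2.53e-08) and 2.08 (SE 0.15, adjusted p = 2.81e-07), at percentiles 97.5 and 96.4 of all tested genes, and their difference was -0.15 (95% interval -0.55 to 0.24, adjusted p = 0.564), which turned to 0.11 with the length and GC trend taken out. With drug, each knockdown line held more ARVCF mRNA than the untreated control library, by 2.08, 1.92 and 1.99 times.

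**Figure D2:**
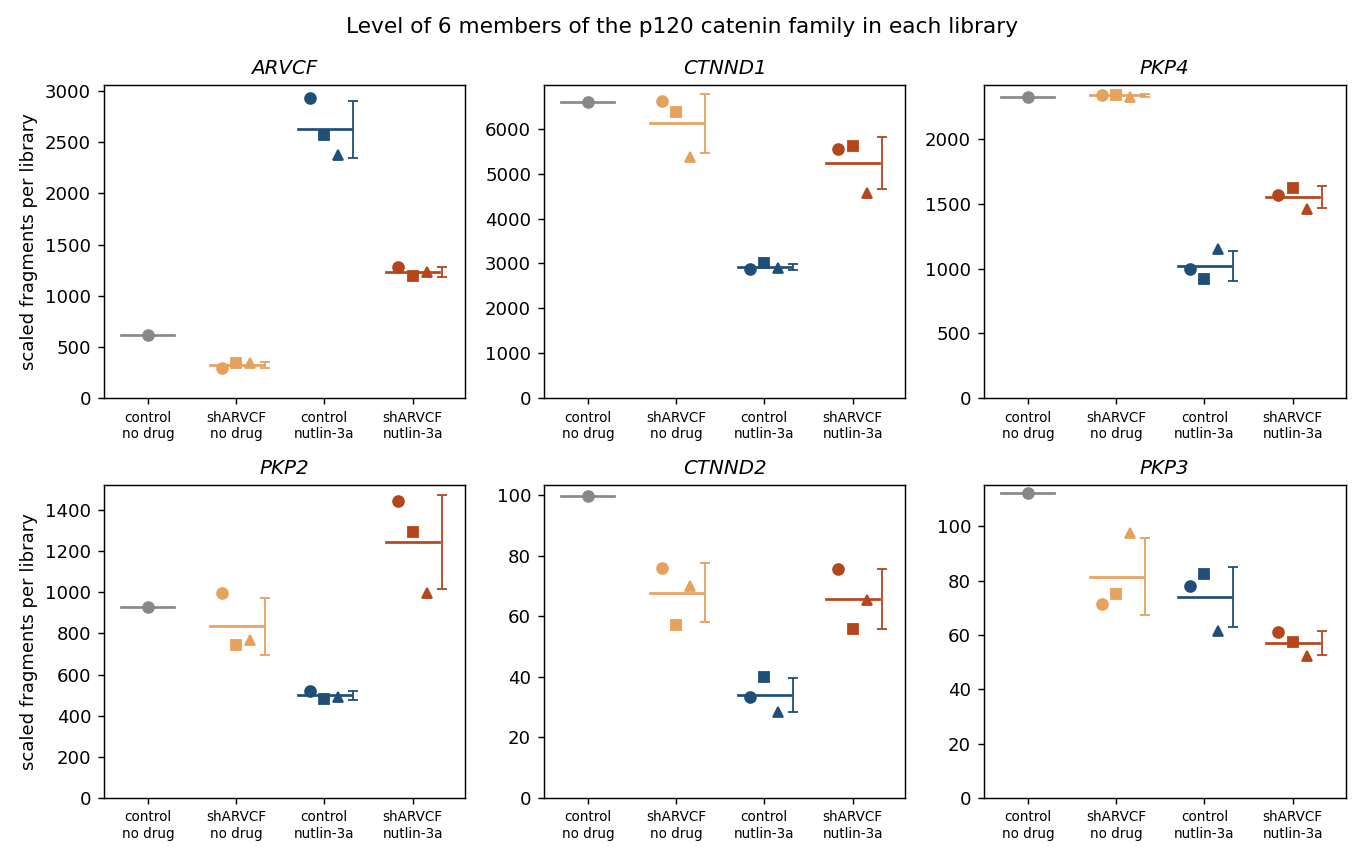
Scaled fragments (y axis, from 0) of 6 members in each library, by group; circles, squares and triangles are libraries 1, 2 and 3, the horizontal line is the group mean and the bar its SD where n = 3. ARVCF is highest in the nutlin-3a control libraries and lowest in the untreated shARVCF libraries, while CTNND1, PKP4 and CTNND2 are lowest in the nutlin-3a control libraries and PKP2 is highest in the nutlin-3a shARVCF libraries.

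Divided by transcript length, so that genes can be compared, the order of the family in the untreated control library was CTNND1 (1007 fragments per kb), PKP4 (403), PKP2 (216), ARVCF (153), PKP3 (40.0) and CTNND2 (18.2). The untreated shARVCF libraries kept that order with no overlap between neighbours, from 821 to 1010 per kb for CTNND1 down to 72.2 to 84.9 for ARVCF and 10.4 to 13.9 for CTNND2. Under nutlin-3a the control line had another order: ARVCF led at 588 to 725 per kb, above CTNND1 at 438 to 459 in every library. These are values as deposited. With the length and GC trend taken out, the control-line changes were log2 1.72 for ARVCF and -0.57 for CTNND1, against 2.08 and -1.17. Whether ARVCF leads on that scale was not tested. In the shARVCF lines under nutlin-3a CTNND1 still led at 699 to 857, and ARVCF (294 to 318), PKP2 (232 to 336) and PKP4 (253 to 282) followed, with PKP2 overlapping the other two. PKP1, the plakophilin of stratified epithelia (chromosome 1, 201283452 to 201332993, plus strand), was listed at 0 in 8 of 10 libraries and at 0.85 and 2.59 in the others, and was not tested.

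ARVCF thus made up 8.32% of the family's fragments per kb in the untreated control library and 45.6% ± 2.89 (SD, n = 3) in the nutlin-3a control libraries. In the shARVCF lines its share was 4.88% ± 0.69 without drug and 18.1% ± 1.76 with it (SD, n = 3 lines each). The other 6 members summed to 1684 fragments per kb in the untreated control library, 1576 ± 118 in the untreated shARVCF lines, 1391 ± 153 in these lines under nutlin-3a and 772 ± 10.0 in the control line under nutlin-3a. The sum of the relatives was therefore lowest where ARVCF was highest. The ratio of CTNND1 to ARVCF per kb was 6.59 in the untreated control library and 0.69 ± 0.08 with drug, against 11.8 ± 2.1 and 2.62 ± 0.31 in the shARVCF lines. These shares, sums and ratios are descriptions and carry no test. They use values as deposited and were not recomputed with the length and GC trend taken out. Lengths are those of the longest GENCODE transcript, which need not be the one expressed.

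**Figure D3:**
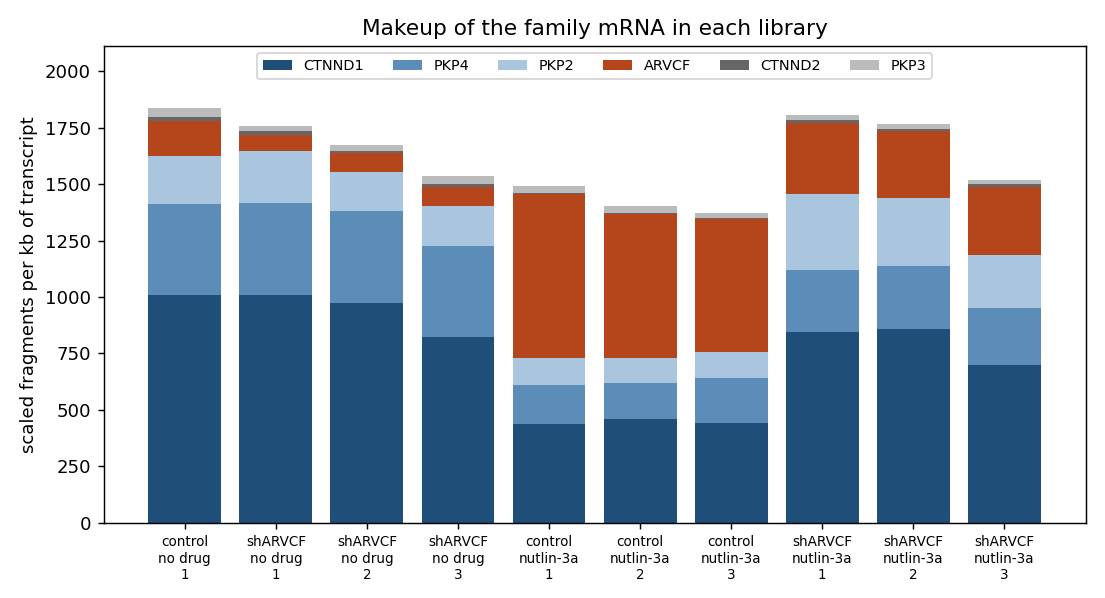
Fragments per kb of transcript (y axis) of 6 members stacked for each of the 10 libraries. The ARVCF segment is the largest in the 3 nutlin-3a control libraries, 588 to 725 per kb, and CTNND1 is the largest in the other 7. Values are as deposited, with the length and GC trend left in.

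Whether relatives stood higher where ARVCF was lowered was asked first without drug. In limma 0 of 6 tested members were called, against 0.0201% of all genes, and 1 of 6, ARVCF itself, had an unadjusted p under 0.05. It has 1 control library and missed ARVCF too (adjusted p = 0.0957), so it does not show that the relatives stayed level. CTNND1 read 6598 in the control library and 6617, 6381 and 5379.5 in lines 1 to 3 (log2 -0.11, 95% interval -0.44 to 0.21). PKP4 read 2326 against 2344, 2347 and 2329.9, with log2 0.01 (95% interval -0.29 to 0.30). PKP2 read 928 against 995, 743 and 769 (log2 -0.16, 95% interval -0.61 to 0.28), so line 1 was above and lines 2 and 3 below the control. The low-level members read less in each line than in the control library: CTNND2 99.9 against 76.1, 57.1 and 70.1, and PKP3 112 against 71.3, 75.3 and 97.7, with log2 -0.56 (95% interval -1.27 to 0.14) and -0.47 (-1.12 to 0.17). The adjusted p was 1 for each of these 5. The intervals of all these 5 end well below a doubling, though each rests on the 1 control library and its assumed spread.

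Under nutlin-3a the picture was different. In the control line 5 of 6 tested members were called, 1 higher (ARVCF) and 4 lower (CTNND1, CTNND2, PKP2 and PKP4), in a comparison that called 57.1% of all genes, 25.1% higher and 32.0% lower. In the shARVCF lines 3 of 6 were called, ARVCF and PKP2 higher and PKP4 lower, where 42.8% of all genes were called, 21.0% higher and 21.7% lower. Between the lines under nutlin-3a, 4 relatives were higher and ARVCF lower in shARVCF, 5 of 6, against 58.4% of all genes, 32.3% higher and 26.1% lower. The nutlin-3a effects themselves differed for 4 of 6, all less negative or more positive in shARVCF, against 31.8% of all genes, 19.3% in that direction. Under nutlin-3a the shARVCF and control libraries did not overlap for any of the 6 tested members, nor for 64.1% of all tested genes. Since so many genes were called or did not overlap, nothing particular to the family is read from the members' counts. The comparisons share control libraries, and all folds against untreated control rest on 1 library.

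CTNND1, p120 catenin itself (chromosome 11, 57753243 to 57819546, plus strand), was the most abundant member in untreated cells. It read 2869.85, 3009 and 2899 in the nutlin-3a control libraries, and 5541, 5616.5 and 4579.8 in the shARVCF lines under nutlin-3a. These control libraries all lay below every other library, at folds of 0.43, 0.46 and 0.44 of the untreated control. Between shARVCF and control under nutlin-3a, 64.1% of all tested genes had no overlap, in either direction. Nutlin-3a changed CTNND1 by log2 -1.17 in the control line (SE 0.15, adjusted p = 3.35e-05) and by -0.22 in the shARVCF lines (SE 0.11, adjusted p = 0.111). The lines gave folds of 0.84, 0.88 and 0.85, and with line as a block this smaller change passed (adjusted p = 0.0215; 0.0215 to 0.377 over 21 alternatives). The effects differed by log2 0.95 (SE 0.18, adjusted p = 0.00233), and CTNND1 was 1.79-fold higher in shARVCF under nutlin-3a (log2 0.84, adjusted p = 2.85e-05; 0.86 in the first series alone). Both calls ended when the length and GC trend was taken out, at log2 0.33 (adjusted p = 0.239; 0.000146 to 0.239 over 21 alternatives) for the effects and 0.22 (adjusted p = 0.0888) under nutlin-3a. The read-through gene TMX2-CTNND1 overlaps it on the same strand and took up to 6.86% of its value in a library, so the split between them is uncertain.

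PKP4 (chromosome 2, 158456964 to 158682879, plus strand) fell in both kinds of line. It read 996, 918 and 1149.9 in the nutlin-3a control libraries and 1571, 1628 and 1463 in the lines. These did not overlap, which held for 64.1% of all tested genes. The fall was log2 -1.19 in the control line (SE 0.14, adjusted p = 1.24e-05) and -0.59 in the shARVCF lines (SE 0.10, adjusted p = 0.000309). The difference of the falls was 0.60 (SE 0.17, adjusted p = 0.0155), and PKP4 was 1.53-fold higher in shARVCF under nutlin-3a (adjusted p = 0.000152; log2 0.61, and 0.64 in the first series alone). With the length and GC trend taken out both calls ended, at log2 0.07 (adjusted p = 0.828; 0.00684 to 0.828 over 21 alternatives) for the falls and 0.09 (adjusted p = 0.485) under nutlin-3a. Without drug its 3 shARVCF libraries had stood at 100.2% to 100.9% of the control library.

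PKP2, a widely expressed plakophilin that is also the one of heart muscle (chromosome 12, 32790745 to 32896840, minus strand), moved in opposite directions. Under nutlin-3a it read 520.4, 482 and 491 in the control libraries, below the untreated 928, and 1447, 1293 and 997 in lines 1 to 3, each above the same line without drug. The change was log2 -0.90 in the control line (SE 0.21, adjusted p = 0.00245) and 0.57 in the shARVCF lines (SE 0.15, adjusted p = 0.00695), with folds of 1.45, 1.74 and 1.30 per line. The effects differed by log2 1.47 (SE 0.25, adjusted p = 0.00106), 1.40 in the first series alone. Under nutlin-3a PKP2 was 2.47-fold higher in shARVCF (log2 1.31, adjusted p = 9.59e-06), the widest gap of the 6 tested members. Line 1 was highest in both conditions; the lines' spread of log2 0.45 was not called (adjusted p = 0.103) but passed when nutlin-3a control library 1 was left out (0.0476 to 0.476 over 18 alternatives).

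CTNND2, a delta-catenin best known from neurons (chromosome 5, 10971840 to 11904043, minus strand), was low throughout. It read 33.5, 39.9 and 28.5 in the nutlin-3a control libraries and 75.5, 55.7 and 65.6 in the lines, which kept it at 0.99, 0.97 and 0.94 of the same line without drug. The change was log2 -1.54 in the control line (SE 0.33, adjusted p = 0.00143) and -0.05 in shARVCF (95% interval -0.55 to 0.45, adjusted p = 0.892), and the difference was 1.49 (SE 0.40, adjusted p = 0.013), a call that ended with the length and GC trend taken out (1.22, adjusted p = 0.0572; 0.00831 to 0.0572 over 21 alternatives). Under nutlin-3a it was 1.91-fold higher in shARVCF (adjusted p = 0.00396; log2 0.93, and 0.94 in the first series alone). PKP3, an epithelial plakophilin (chromosome 11, 392614 to 404908, plus strand), read 78.2, 82.4 and 61.6 in the control libraries and 61.2, 57.4 and 52.3 in the lines under nutlin-3a. As deposited it passed in none of the comparisons: log2 -0.61 in the control line (adjusted p = 0.0977), -0.50 in shARVCF (adjusted p = 0.0736) and -0.37 between them (adjusted p = 0.152; -0.45 in the first series alone).

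The differences between lines under nutlin-3a followed transcript length and GC content over all genes (Spearman rank correlations 0.58 and -0.52 across 14734 genes). The genes are not independent replicates. The nutlin-3a effect in the control line did so too (-0.43 and 0.38), whereas that within the shARVCF lines did so little (-0.03 and 0.10). Without drug the difference between lines followed GC (-0.30) but hardly length (0.01). CTNND1 and PKP4 are long, at 6553 and 5777 bases longer than 85.5% and 80.3% of tested genes, with 46.6% and 47.0% G and C, and ARVCF has a higher GC content (65.9%) than 97.4% of them. With the trend removed in each library, CTNND1 was 0.22 higher in shARVCF under nutlin-3a on the log2 scale (adjusted p = 0.0888; 1.09e-06 to 0.0888 over 21 alternatives) and PKP4 0.09 (adjusted p = 0.485; 4.66e-05 to 0.485), so neither passed. CTNND2 and PKP2 did, at 0.71 and 0.97 (adjusted p = 0.0242 and 0.000225), and PKP3 turned to 0.34 (adjusted p = 0.18). Of the 4 differences in nutlin-3a effect only that of PKP2 passed after this step (log2 1.14, adjusted p = 0.0105; 6.39e-05 to 0.0166 over 21 alternatives), against 0.33, 1.22 and 0.07 for CTNND1, CTNND2 and PKP4. The falls in the control line were then -0.57 for CTNND1, -1.33 for CTNND2, -0.54 for PKP2, -0.66 for PKP4 and -1.27 for PKP3, and all 5 passed. Whether the trend came from the cells or from library making was not tested.

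**Figure D4:**
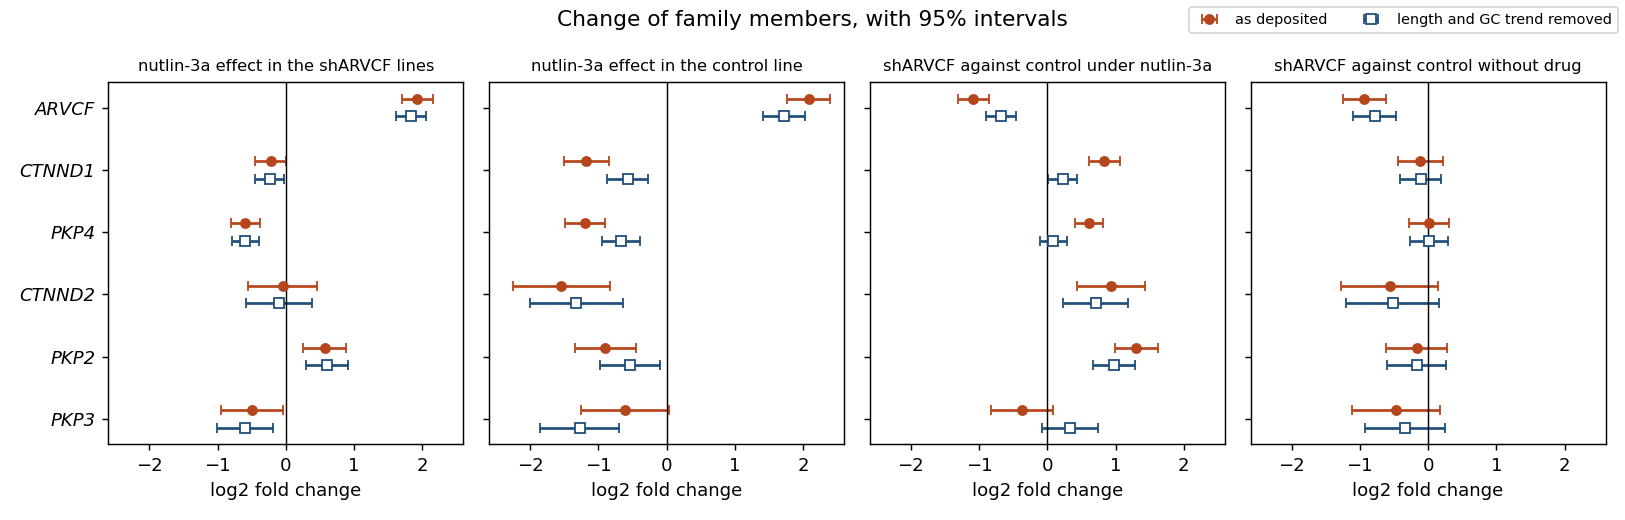
Log2 fold change (x axis) of the 6 tested members in 4 comparisons, as deposited (filled circles) and after removal of each library's length and GC trend (open squares), with 95% intervals from limma. In the third panel CTNND1 goes from 0.84 to 0.22, PKP4 from 0.61 to 0.09, PKP2 from 1.31 to 0.97 and ARVCF from -1.08 to -0.67. After removal the intervals of ARVCF, PKP2, CTNND2 and CTNND1 are clear of 0, and those of PKP4 and PKP3 are not. The CTNND1 interval (0.01 to 0.44) is unadjusted, and its adjusted p did not pass.

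Of 3 genes near ARVCF that are given here, 2 also rose with nutlin-3a and 1 fell. TANGO2 starts 206 bases from the GENCODE gene start of ARVCF, on the other strand. The ARVCF promoter printed above belongs to an inner start and lies further from TANGO2. TANGO2 rose by log2 0.85 in the control line and 0.57 in the shARVCF lines (limma, adjusted p = 0.00021 and 0.000481). TXNRD2, a mitochondrial thioredoxin reductase gene, rose by 1.79 and 0.60 in the same order (limma, adjusted p = 1.59e-06 and 0.000867). These effects differed by log2 -1.19 (adjusted p = 0.000792), and those of ARVCF by -0.15 (adjusted p = 0.564). Whether TXNRD2 and ARVCF differ in this was not tested. DGCR8, a subunit of the microprocessor, fell by 0.68 and 0.36 in these lines (adjusted p = 0.00218 and 0.0181). Without drug none of the 3 was called, with log2 -0.16, -0.04 and -0.12 in that order beside -0.93 for ARVCF. After trend removal the control-line rise of TANGO2 was 0.26 and did not pass (adjusted p = 0.143), and that of TXNRD2 did, at 1.28.

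Over the 10 libraries the log2 pattern most like that of ARVCF among 13314 genes with a named symbol was that of PICK1, also on chromosome 22 (Pearson r 0.990), then AP5Z1 (0.990), ZNF219 (0.989), FAM43B (0.989) and SLC4A3 (0.989). These 5 genes have 61.1% to 70.1% G and C. PICK1 read 383 in the untreated control library and had means of 296, 838 and 525 in the untreated shARVCF, nutlin-3a control and nutlin-3a shARVCF groups, so it shared the direction of every step with ARVCF. The genes most like CTNND1 were LAMA2 (0.996), ZBTB44 (0.995), BACH2 (0.994), SENP7 (0.993) and KLF12 (0.993), with transcripts of 4945 to 10637 bases. PKP4 ran against ARVCF (r -0.96). The libraries share treatment, series and the length and GC trend, so these values are descriptions.

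Of the classical cadherins, the partners of ARVCF and CTNND1 at the membrane, 13 of 18 were tested. In the control line 2 rose and 7 fell with nutlin-3a (median log2 -1.02, all genes -0.10), in the shARVCF lines 3 rose and 4 fell (0.01, all genes -0.00), and 8 were higher and 1 lower in shARVCF under the drug (0.82, all genes 0.06). Called were thus 9, 7 and 9 of 13, where 57.1%, 42.8% and 58.4% of all genes were. None was called without drug (13 tested; median -0.04), where 0.0201% of all genes were. CDH2 (N-cadherin) stood at 3127 ± 283 in the shARVCF lines under nutlin-3a against 2150 ± 98.1 in the control line (SD, n = 3; log2 0.54, adjusted p = 0.000196), and CDH11, the cadherin of osteoblasts, at 1350 ± 142 against 693 ± 22.6 (log2 0.96, adjusted p = 5.1e-05). CDH10 rose from 37.5 to 315 ± 19.0 in the control line and from 31.8 ± 5.61 to 555 ± 40.5 in shARVCF (log2 3.03 and 4.10, adjusted p = 4.65e-07 and 2.81e-09), and CDH18 fell in both, from 399 to 86.5 ± 10.2 and from 449 ± 44.3 to 117 ± 20.8. After trend removal 2 of the 13, CDH4 and CDH10, were higher in shARVCF under the drug (log2 1.17 and 0.50) and none lower, and CDH2 and CDH11 stood at 0.15 and 0.21.

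Of 9 tested genes of the adherens plaque, which ties cadherins and nectins to actin, none rose with nutlin-3a in either kind of line, and 7 fell in the control line (median log2 -1.16) and 5 in shARVCF (-0.36). Under the drug 4 were higher in shARVCF and 1 lower (median 0.77), and none was called without drug (median -0.01). All-gene medians were -0.10, -0.00, 0.06 and -0.01 in that order, and the shares of all genes called in the first 3 were 57.1%, 42.8% and 58.4%, so that 5 of 9 between lines is near the background. VCL (vinculin) stood at 5383 ± 431 in shARVCF against 2766 ± 247 (SD, n = 3; log2 0.96, adjusted p = 3.69e-06), and MLLT4 (afadin) at 2439 ± 80.9 against 1100 ± 143 (log2 1.16, adjusted p = 1.98e-06). Both passed after trend removal too, at 0.40 and 0.45 (adjusted p = 0.00319 and 0.00297), as did PVRL3 (nectin-3) at 0.52.

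Of 10 desmosomal genes other than the plakophilins 5 were tested. With nutlin-3a 3 rose in shARVCF and none fell, and 3 rose and 2 fell in the control line (medians 0.60 and 0.91), where 42.8% and 57.1% of all genes were called and the all-gene medians were -0.00 and -0.10. Between lines under the drug 2 were higher and 1 lower in shARVCF (median 0.46, all genes 0.06; -0.13 after trend removal), against 58.4% of all genes called, and none of the 5 was called without drug. PERP, a known p53 target of the desmosome, rose by log2 0.96 in shARVCF and 0.91 in the control line, and JUP (plakoglobin) by 0.60 and 0.91. DSG2, a desmosomal cadherin that plakophilins bind, fell in the control line as PKP2 did, from 2397 to 915 ± 160 (SD, n = 3; log2 -1.40, adjusted p = 4.59e-05). In shARVCF it stood at 2842 ± 334 (log2 1.64 above control, adjusted p = 8.01e-07, and 0.97 after trend removal), where its own nutlin-3a change was 0.29 (adjusted p = 0.102). DSC2 and JUP, at log2 0.98 and -0.55 between lines, did not pass after trend removal (-0.12 and -0.13).

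Of 21 known partners of the family in signalling and scaffolding, 10 were higher and 3 lower in shARVCF under nutlin-3a (median log2 0.31), 2 rose and 9 fell in the control line (-0.13), 4 rose and 6 fell in shARVCF (0.11), and none was called without drug (-0.02). All-gene medians were 0.06, -0.10, -0.00 and -0.01. The 13 and 11 of 21 called between lines and in the control line are close to the 58.4% and 57.1% of all genes, and the 10 of 21 in shARVCF to 42.8%. ERBB2IP (erbin, a PDZ scaffold) stood at 4327 ± 369 in shARVCF against 1429 ± 155 (SD, n = 3; log2 1.60, adjusted p = 1.17e-07), the kinase YES1 at 5473 ± 522 against 2463 ± 233 (2.22-fold, adjusted p = 2.7e-06) and ARHGAP35, which encodes a GTPase-activating protein, at 2480 ± 125 against 1339 ± 74.0 (log2 0.89, adjusted p = 3.7e-06). After trend removal these were 0.56, 0.52 and 0.36 and passed, while FER, a kinase that binds p120 catenin, went from 1.19 to 0.07. ZBTB33 (Kaiso), a repressor bound by p120 catenin, fell by log2 1.57 in the control line, from 642 to 217 ± 34.3. RHOA fell by 0.44 in shARVCF (adjusted p = 0.00224). With the trend removed, these changes were log2 -0.73 and -0.44, and both passed (limma, adjusted p = 0.00719 and 0.00203). For the difference of nutlin-3a effects, 4 of 13 cadherins, 3 of 9 plaque genes, 2 of 5 desmosomal genes and 9 of 21 partners were called, all higher in shARVCF, and 0, 0, 1 and 4 after trend removal. Of all genes 31.8% were called in that test, 19.3% higher.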

How the data were processed

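Poly(A) RNA of 10 U2OS libraries was sequenced after stranded preparation. The submitters' processing notes name bcl2fastq 1.8.3, HISAT2 2.1.0 on hg38 and, for scaling, Cuffnorm 2.2.1; for annotation and strand setting nothing is stated. The deposited signal is the authors' estimated fragments per gene, scaled per library and not whole counts: 51.6% to 58.2% of positive values were whole multiples of the lowest step (tolerance 0.01), so no count test was run. From these steps unscaled totals were 15073578 to 21096205. Positions, lengths and GC are from GENCODE 29 (24016 symbols matched by name, 719 by an older name, 1305 not). Older symbols are printed as deposited.

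Genes with at least 10 in 3 libraries (14955) were fitted with limma 3.58.1 (R 4.3.3, trend and robust) on log2(value + 1), 4 group means over 10 libraries; the lone untreated control is assumed to vary like the others. Adjusted p-values are Benjamini-Hochberg over all tested genes, called at 0.05, two-sided. The pseudocount of 1 shrinks fold changes of low genes. The scripts were tested on simulated data. The shARVCF numbers pair libraries of the same line. Residuals of the same line correlated at 0.275, 0.288 and 0.327, and those of different lines below 0. Residuals from group means sum to 0 in each group, so the latter had to fall below 0 on balance and add no support. The fit with line as a block is an alternative. Others were pseudocounts, filters, 3 scalings, plain limma, library series, each library left out, and removal of each library's length and GC trend (splines of 4 degrees of freedom, 14734 genes). Members and lists were chosen with earlier results of these data known. Named were all members, up to 4 genes per list and comparison by smallest adjusted p, neighbours of ARVCF (1 gene that this rule takes is not reported here), MDM2 and CDKN1A, and the 5 genes most correlated with ARVCF and with CTNND1. The marker lists serve only to describe the cells.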

Additional observations from a re-analysis of the deposited data

Results flagged for a closer look

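The nutlin-3a effect differed between the shARVCF lines and the control line for 4 relatives of ARVCF, by a test of the difference itself in limma. The log2 differences were 0.95 for CTNND1, 1.49 for CTNND2, 1.47 for PKP2 and 0.60 for PKP4, each higher in shARVCF, with adjusted p-values of 0.00233, 0.013, 0.00106 and 0.0155. Of all tested genes 31.8% were called in the same test. The control-line effects all rest on the same 1 untreated library. With each library's length and GC trend taken out, only the PKP2 difference passed (1.14, adjusted p = 0.0105); CTNND1 stood at 0.33 (adjusted p = 0.239), CTNND2 at 1.22 (0.0572) and PKP4 at 0.07 (0.828). Over 21 alternatives the adjusted p ran from 6.39e-05 to 0.0166 for PKP2, 0.000146 to 0.239 for CTNND1, 0.00831 to 0.0572 for CTNND2 and 0.00684 to 0.828 for PKP4. PKP2 was the only one of the 4 that changed in opposite directions in the 2 kinds of line.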

How the results depend on the processing

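The rise of ARVCF with nutlin-3a in both kinds of line and its lower level in shARVCF under nutlin-3a kept direction and call under all 21 alternatives (log2 1.83 to 1.98, 1.72 to 2.24 and -1.25 to -0.67). The missed call without drug stayed missed in all 21.

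Removal of the length and GC trend lowered the members called between lines under nutlin-3a from 5 to 3 (all genes 5647 against 8731) and those with differing nutlin-3a effects from 4 to 1 (1857 against 4756); the cause was not tested. It turned the difference of effects of ARVCF to 0.11 and PKP3 between lines under nutlin-3a to 0.34. Upper-quartile scaling turned the CTNND2 effect in shARVCF to 0.0053. That scaling moved the median of all genes by 0.14 in the control-line effect, and scaling to the library total moved it by -0.12 and, between lines under nutlin-3a, by 0.11. In the control line 3752 genes rose and 4780 fell as deposited (44.0% higher), 4497 and 4190 with upper-quartile scaling (51.8%) and 3275 and 5332 with the library total (38.1%); no other direction of a member turned with scaling. With the replicate block on line, CTNND1 passed in shARVCF (-0.22, adjusted p = 0.0215), 8 genes instead of 3 were called without drug, and no other call of a member changed.

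The genes called without drug numbered 8 with a pseudocount of 0.1, 0 with 10, 1 with a filter of 50, 5 in plain limma, 0 in the first series alone and 0 after trend removal. Among the 3 lines 649 genes were called, 245 without a filter and 61 in plain limma. Leaving out 1 library each gave 194 to 1336 genes among lines and 0 to 2 members, the latter (CTNND1 and PKP2) without nutlin-3a control library 1, 1 to 4 genes without drug, a CTNND2 effect in shARVCF of -0.16 to 0.063, and a PKP3 difference of effects of -0.018 to 0.24. Without untreated shARVCF library 3, CTNND1 passed in shARVCF (-0.31, adjusted p = 0.0382). PKP3 passed in both nutlin-3a effects in plain limma (adjusted p = 0.0355 and 0.0464) and after trend removal. CTNND2 and PKP3, at most 99.9 and 112 in any library, have the widest intervals.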
